A study of Saccharomyces cerevisiae with 10 samples.

Results

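The endoplasmic reticulum (ER) enzymes that attach sugars to proteins were followed in Saccharomyces cerevisiae that made a foreign membrane protein. The 32 genes were taken by symbol from the array's annotation and fall into 6 roles: 6 and 5 enzymes that build the lipid-linked oligosaccharide on the cytosolic and lumenal faces of the ER membrane, 3 genes of dolichol phosphate and its sugar donors, 9 subunits of oligosaccharyl transferase, 6 protein O-mannosyltransferases, and 3 genes of glucose trimming and lectin binding. Each gene had 1 probe set, so the 32 members are 32 of the 5498 probe sets (5449 genes) that name 1 S. cerevisiae gene. The tested yeast carried prs426GPD-αENaC-HA, a plasmid for the HA-tagged α subunit of the epithelial sodium channel, and the reference yeast carried pRSGPD426, the vector control. GPD is the strong constitutive promoter of the TDH3 gene, and the plasmid's label names no partner subunit of the channel. Cells were harvested in mid log phase from selective medium kept at 26 °C, and their total RNA was read on 3 αENaC and 7 control arrays. The sources used here give no strain background. Whether αENaC arrays carry the channel transcript was not analysed here, and group names are those of the labels.

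N-glycosylation begins on dolichol phosphate, a long isoprenoid lipid of the ER membrane. Sugars are added to it one at a time, first on the cytosolic face and, after the lipid flips, on the lumenal face. Oligosaccharyl transferase then moves the finished glycan to asparagine residues of proteins entering the ER, glucosidases trim it, and the lectin calnexin binds the trimmed form. The O-mannosyltransferases place mannose on serine and threonine instead, with dolichol phosphate mannose as donor. αENaC is itself a glycoprotein in animal cells, and several genes of this machinery are known in yeast as targets of the unfolded protein response, the program that answers misfolded protein in the ER.

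The deposited values were turned into log2 levels as given under the processing, and a level can be set against the same gene's level on other arrays but not against another gene's. All 32 genes lay above the background level of −2.03 on average. The sample titles carry running numbers, and arrays split by them. Numbers 1 to 4, called set 1 here, are αENaC 1 and 2 and controls 1 and 2. Set 2 is the pair control 3 and αENaC 3, numbered 5 and 6. Set 3 is controls 4 to 7, numbered 11 to 14, with no αENaC array. The labels do not call these sets batches. Within a set and group, arrays correlated at 0.980 to 0.999 across probe sets, so p-values measure a spread that may be in part technical. The heat-shock gene HSP12, which marks the general stress state, ranged from 2.12 to 2.66 on the αENaC arrays and from 0.14 to 3.46 on the control arrays. It was at 0.23 and 0.14 in controls 1 and 2 and between 2.06 and 3.46 in the other 5 controls. HSP26, another heat-shock gene, ranged from 0.51 to 0.92 on the αENaC arrays and from −1.58 to 3.01 on the control arrays. Within sets 1 and 2 HSP12 differed by 2.04 and 0.59 and HSP26 by 2.26 and −1.48, so they parted in set 2. URA3, the plasmid's marker gene, differed by −0.45 and −0.59 within these sets, but by −0.02 over all arrays. It was at 3.31, 3.29 and 3.19 in αENaC and at 3.79, 3.72 and 3.78 in controls 1 to 3. In controls 4 to 7 URA3 was lower than on all other arrays, at 2.74 to 3.01. The part of the stress state or of URA3 in the member differences was not tested.

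Of the ER glycosylation genes, dolichol kinase alone passed the test between αENaC and control yeast, and most differences were small. In limma's test over all 5498 probe sets (adjusted p under 0.05), 1 of the 32 was higher in αENaC and 0 were lower, where 1.36% of all probe sets were higher and 0.364% lower (1.73% in either direction). At an unadjusted p under 0.05 it was 5 members (15.6%), 4 higher and 1 lower, against 18.2% of all probe sets, 10.2% higher and 7.91% lower. The members' median difference was 0.03 on the log2 scale, against 0.02 over all probe sets. Their median difference without regard to sign was 0.08, against 0.14. The 95% intervals of single genes reached 0.14 (WBP1) to 0.59 (PMT5) to either side. Positive differences numbered 19 and negative ones 13 of 32, against 53.8% and 46.2% of all probe sets. In 3 members, SEC59, PMT2 and PMT6, the αENaC and control arrays did not overlap, as in 8.58% of all probe sets. The number of positive differences followed the scaling. It was 13 with each array centred on its median and 31 on the deposited scores. It was 26 when quantile normalization was left out, which put the median of all probe sets at 0.16. The arrays read RNA pooled over a culture, so fewer cells with a transcript and less of it in each cell cannot be told apart.

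**Figure D1:**
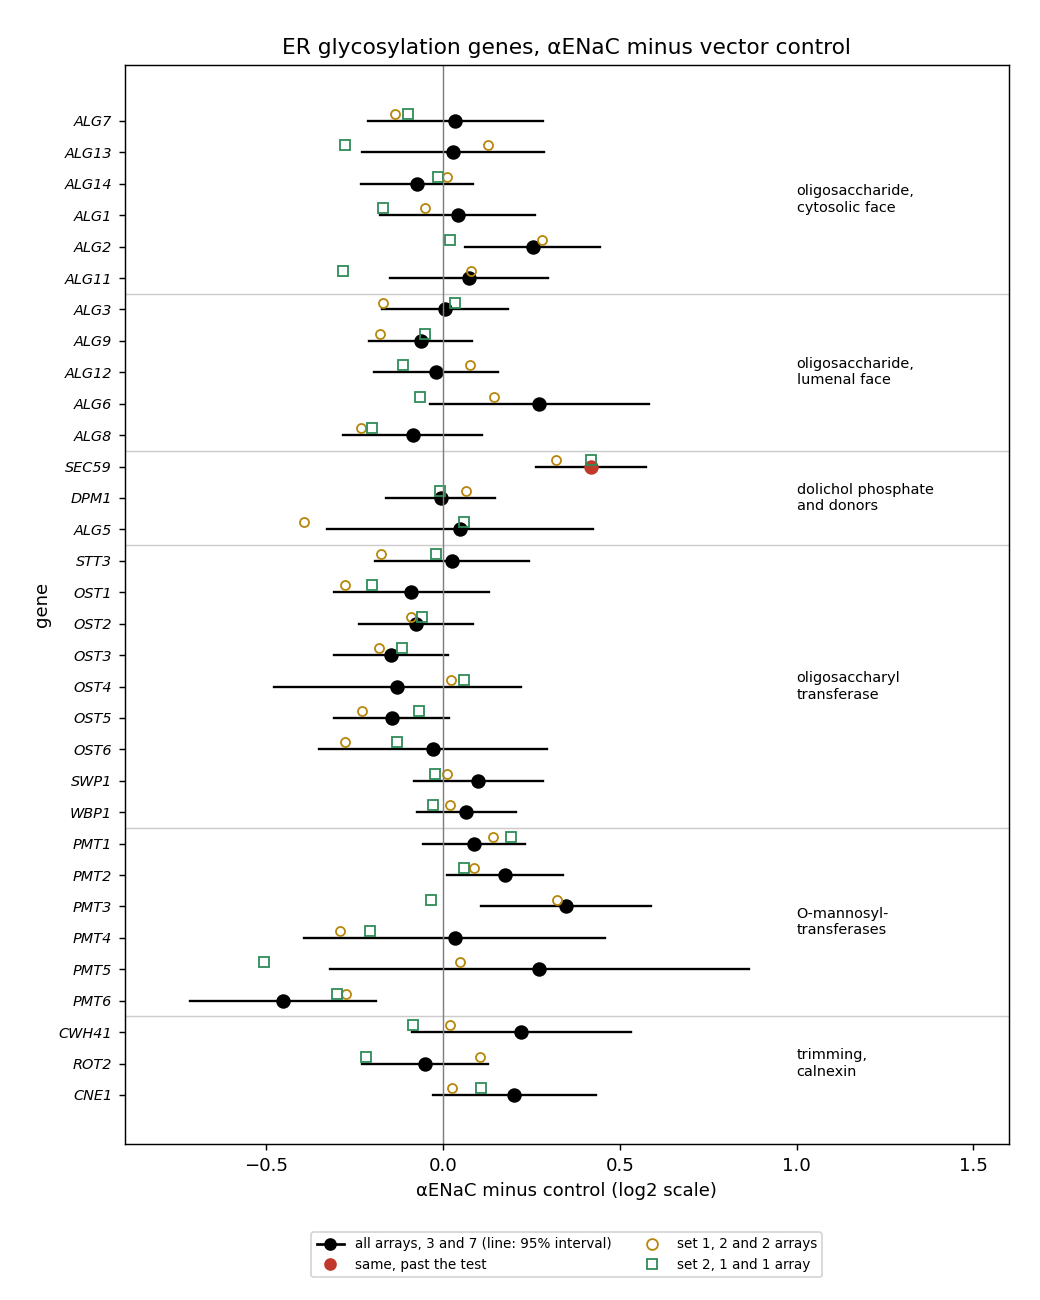
Difference between αENaC and vector control arrays (log2 scale, x axis) for the 32 genes (y axis), grouped by role. Filled points are the difference over all 3 αENaC and 7 control arrays with its 95% interval, red where past the test, and open symbols are the differences within set 1 (2 and 2 arrays) and set 2 (1 and 1 array). SEC59, at 0.42, is the one red point.

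The gene that rose was SEC59, which encodes dolichol kinase, the enzyme that makes dolichol phosphate by phosphorylating dolichol. Its level was −0.30, −0.40 and −0.32 on the 3 αENaC arrays, against a lowest of −0.91, a median of −0.76 and a highest of −0.65 on the 7 control arrays. Every αENaC array lay above every control array, which was so for 4.97% of all probe sets. The difference was 0.42 ± 0.07 (SE, n = 3 and 7, limma adjusted p = 0.0165), or 1.34-fold. It was 0.32 within set 1 and 0.42 within set 2. The sign was positive under all 28 alternatives. The call was lost under 8 of them. These were the fits without αENaC 1 (adjusted p = 0.146), without αENaC 2 (adjusted p = 0.106) and without control 6 (adjusted p = 0.0505), with median centring (adjusted p = 0.0682), without quantile normalization (adjusted p = 0.0939), with title numbers 1 to 6 only (adjusted p = 0.132), with near-identical arrays averaged (adjusted p = 0.989) and with the replicate block. In the last of these, with 3 against 3 arrays, the difference was 0.34 (limma adjusted p = 0.156).

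The other genes of this role supply the sugar donors and did not move past the test. DPM1 encodes dolichol phosphate mannose synthase, whose product feeds the lumenal ALG enzymes, the O-mannosyltransferases and GPI anchors. Its level was 2.53, 2.51 and 2.63 in αENaC against 2.45 to 2.64 in controls, a difference of −0.01 ± 0.07 (limma adjusted p = 0.971). The 95% interval of that difference ran from −0.16 to 0.15. ALG5 encodes dolichol phosphate glucose synthase and differed by 0.05 ± 0.17 (adjusted p = 0.911). It stood at 0.12 and 0.10 in the αENaC arrays of set 1 against 0.55 and 0.46 in their controls, but the 4 controls of set 3 lay lower than all of these, between −0.28 and −0.04.

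Genes that act before SEC59, in making dolichol, were listed beside the members. NUS1 encodes a subunit of the cis-prenyltransferase that elongates the isoprenoid chain, and its level was 0.31, 0.30 and 0.14 in αENaC against −0.41 to −0.12 in controls. The groups do not overlap. NUS1 rose by 0.50 ± 0.08 (SE, n = 3 and 7, limma adjusted p = 0.0165). Set 1 alone gave 0.44 and set 2 alone 0.32. The sign was positive under all 28 alternatives, but the call was lost under 8 of them. Among these were the replicate block, with a difference of 0.39 (adjusted p = 0.146), and the fits without αENaC 1 (adjusted p = 0.145) or αENaC 2 (adjusted p = 0.117). SRT1, the catalytic partner that makes longer dolichols, was at −2.93, −2.78 and −2.70 in αENaC against −3.56 to −3.02 in controls and thus below background in both groups, so no difference is given. RER2, the main catalytic partner of NUS1, differed by 0.32 ± 0.22 (adjusted p = 0.455), and by −0.18 in set 1 and 0.22 in set 2. DFG10, the reductase that forms dolichol, was at 0.25 ± 0.13 (adjusted p = 0.334). CAX4 encodes the phosphatase that recycles dolichol pyrophosphate, and was picked out after its values were seen. It was at −0.45, −0.45 and −1.03 in αENaC against −0.43 to −0.03 in controls, a difference of −0.43 ± 0.14 (adjusted p = 0.147) with no overlap. The list also covers the lipid-linked oligosaccharide and so held DIE2, which is not a gene of dolichol synthesis. DIE2 differed by −0.08 ± 0.08 (limma adjusted p = 0.614), and by −0.17 in set 1 and −0.10 in set 2. In all, 1 of the 6 measured genes of this list was past the test, against 1.73% of all probe sets.

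**Figure D2:**
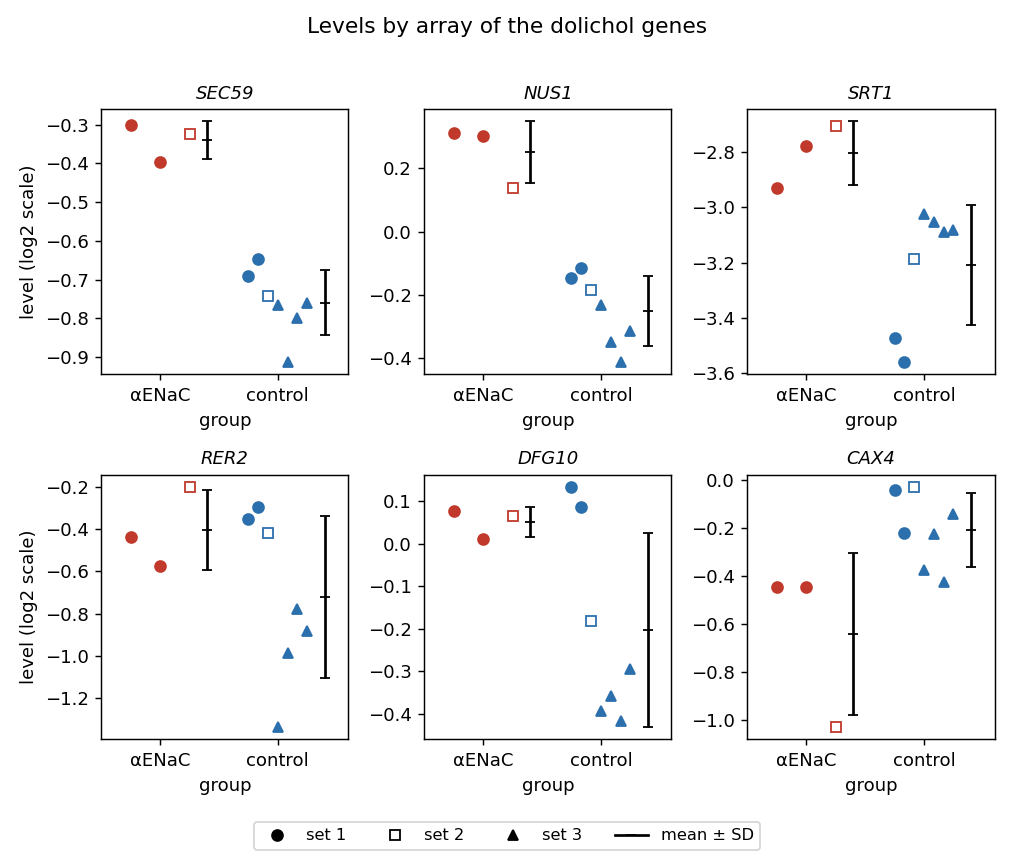
Level (log2 scale, y axis) of SEC59 and of 5 genes of dolichol synthesis and recycling on each αENaC (left) and control (right) array, with symbols for the title number set and bars for mean ± SD. SEC59 and NUS1 separate the groups within every set that holds both, whereas in RER2 and DFG10 the controls of set 3 lie below all other arrays and the αENaC arrays of set 1 lie below their own controls.

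None of the 6 enzymes of the cytosolic face was past the test (limma adjusted p from 0.162 to 0.925, with 1 of 6 at an unadjusted p under 0.05). ALG7 encodes the first enzyme of the pathway, the target of tunicamycin, and differed by 0.03 ± 0.11 (adjusted p = 0.902). ALG13 and ALG14 form the transferase that adds the second N-acetylglucosamine, and were at 0.03 ± 0.12 and −0.07 ± 0.07. ALG2, a mannosyltransferase, had the smallest p of the role. Its level was 0.48, 0.47 and 0.17 in αENaC against a lowest of 0.05, a median of 0.09 and a highest of 0.28 in controls. The 2 αENaC arrays of set 1 lay above all controls and αENaC 3 did not. The difference was 0.25 ± 0.09 (adjusted p = 0.162), and it was called without αENaC 3 (0.36, adjusted p = 0.0396). ALG1 and ALG11, the other mannosyltransferases of this face, were at 0.04 ± 0.10 and 0.07 ± 0.10.

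On the lumenal face 0 of 5 enzymes were past limma's test, and 0 were at an unadjusted p under 0.05. The mannosyltransferase genes ALG3, ALG9 and ALG12 differed by 0.01 ± 0.08, −0.06 ± 0.07 and −0.02 ± 0.08. The glucosyltransferase gene ALG6 was at 1.65, 1.66 and 1.26 in αENaC against a lowest of 0.98, a median of 1.23 and a highest of 1.52 in controls, a difference of 0.27 ± 0.14 (adjusted p = 0.335). ALG8, which encodes the next glucosyltransferase, was at 0.92, 0.98 and 0.90 in αENaC. Its controls were at 1.18 and 1.18 in set 1, 1.10 in set 2 and between 0.89 and 0.98 in set 3. So αENaC lay below its own controls in sets 1 and 2 but level with the controls of set 3. The difference over all arrays was −0.09 ± 0.09 (adjusted p = 0.643), and with the set as a fixed block it was −0.22 ± 0.05 (limma adjusted p = 0.0198). That blocked call was lost without quantile normalization (adjusted p = 0.0666) and over title numbers 1 to 6 alone (adjusted p = 0.0577).

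Of the 9 subunits of oligosaccharyl transferase, 0 were past limma's test over all arrays, and 0 were at an unadjusted p under 0.05. Their median difference was −0.08, but 0.01 without quantile normalization, 0.13 on the deposited scores and −0.15 with median centring. In 6 of the 9 the difference was negative both within set 1 and within set 2, where 28.0% of all probe sets were. With the set as a fixed block 3 subunits were lower and 0 higher, against 6.86% and 7.38% of all probe sets. OST1, which encodes an essential subunit, was at 1.95, 1.95 and 1.91 in αENaC. Its controls were at 2.20 and 2.25 in set 1, 2.12 in set 2 and from 1.83 to 1.94 in set 3. The difference was −0.09 ± 0.10 (adjusted p = 0.664) over all arrays and −0.25 ± 0.05 with the block (adjusted p = 0.0145), or −0.22 with the block over title numbers 1 to 6 alone (adjusted p = 0.0522).

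OST3 and OST6 encode alternative thioredoxin-like subunits, each of which defines a form of the complex. OST3 was at 1.51, 1.53 and 1.74 in αENaC against a lowest of 1.68, a median of 1.75 and a highest of 1.86 in controls. The αENaC arrays of set 1 lay below all controls, and αENaC 3 lay below control 3. The difference was −0.15 ± 0.07 over all arrays (adjusted p = 0.320) and −0.16 ± 0.04 with the block (adjusted p = 0.0459), and the blocked call was lost with median centring, without quantile normalization or over title numbers 1 to 6 alone. OST6 was at 1.12, 1.09 and 0.82 in αENaC against 1.41 and 1.36 in the controls of set 1, 0.95 in control 3 and 0.84 to 0.98 in set 3. Its difference was −0.03 ± 0.15 over all arrays (adjusted p = 0.943) and −0.23 ± 0.06 with the block (adjusted p = 0.0371), and the blocked call was lost without quantile normalization or over title numbers 1 to 6 alone. Across control sets the pair parted: set 3 minus set 1 was 0.03 for OST3 and −0.49 for OST6.

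The remaining subunits did not pass in either fit. STT3, the catalytic subunit, was at 1.52, 1.45 and 1.45 in αENaC against 1.29 to 1.67 in controls (0.02 ± 0.10), with its highest levels in controls 1 and 2. WBP1 and SWP1, essential subunits that bind each other, were at 0.07 ± 0.06 and 0.10 ± 0.08. OST2 and OST5 were at −0.08 ± 0.07 and −0.15 ± 0.07. OST4, a very small subunit, was at 0.93 and 0.94 in αENaC of set 1 against 0.93 and 0.90 in its controls, and at 1.46 in αENaC 3 against 1.40 in control 3. Its levels were ordered by set more than by group.

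The O-mannosyltransferases held the widest spread of differences, from −0.45 for PMT6 to 0.35 for PMT3, with 0 of 6 past limma's test and 3 at an unadjusted p under 0.05. PMT6 belongs to the PMT2 branch of the family. Its level was 0.05, 0.07 and 0.30 in αENaC against a lowest of 0.31, a median of 0.65 and a highest of 0.76 in controls. No αENaC array reached a control array, which was so for 3.62% of all probe sets, but αENaC 3 and control 1 were only just apart. The difference was −0.45 ± 0.12 (SE, n = 3 and 7, adjusted p = 0.0855). It was −0.28 in set 1 and −0.30 in set 2. With the set as a fixed block it was −0.28 ± 0.05 (adjusted p = 0.00972). The sign was negative under all 28 alternatives. The set 3 controls were 0.39 higher than the set 1 controls, in the direction that widens the difference over all arrays.

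PMT1 and PMT2 encode the partners of the main O-mannosyltransferase complex. PMT2 was at 2.5, 2.47 and 2.46 in αENaC against a lowest of 2.15, a median of 2.27 and a highest of 2.41 in controls. These groups do not overlap either, but the difference of 0.17 ± 0.07 did not pass (adjusted p = 0.247) and was −0.03 with median centring. PMT1 was at 1.79, 1.78 and 1.76 in αENaC. Its controls were at 1.63, 1.66 and 1.57 in sets 1 and 2 and from 1.70 to 1.76 in set 3. Over all arrays PMT1 differed by 0.09 ± 0.07 (adjusted p = 0.50), and by 0.16 ± 0.04 with the set as a fixed block (adjusted p = 0.0409), a call that was lost with median centring added or over title numbers 1 to 6 alone. PMT5 lies next to PMT1 in the RefSeq gene order. It was at −0.09, −0.04 and −0.95 in αENaC against −1.09 to −0.09 in controls, and thus did not follow PMT1.

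PMT3 was at 0.61, 0.55 and 0.38 in αENaC against a lowest of −0.08, a median of 0.20 and a highest of 0.42 in controls, a difference of 0.35 ± 0.11 (adjusted p = 0.135). Within set 1 it was 0.32 and within set 2 it was −0.03. PMT4 acts as a homodimer, largely on membrane-anchored proteins. It was at 1.71, 1.70 and 1.29 in αENaC against 2.02 and 1.97 in the controls of set 1, 1.5 in control 3 and 1.26 to 1.38 in set 3. The difference over all arrays was 0.03 ± 0.19 (adjusted p = 0.949), while it was −0.29 within set 1 and −0.21 within set 2. With the set as a fixed block PMT4 was lower in αENaC at −0.26 ± 0.05 (limma adjusted p = 0.0123), so its sign turned with the treatment of the sets.

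**Figure D3:**
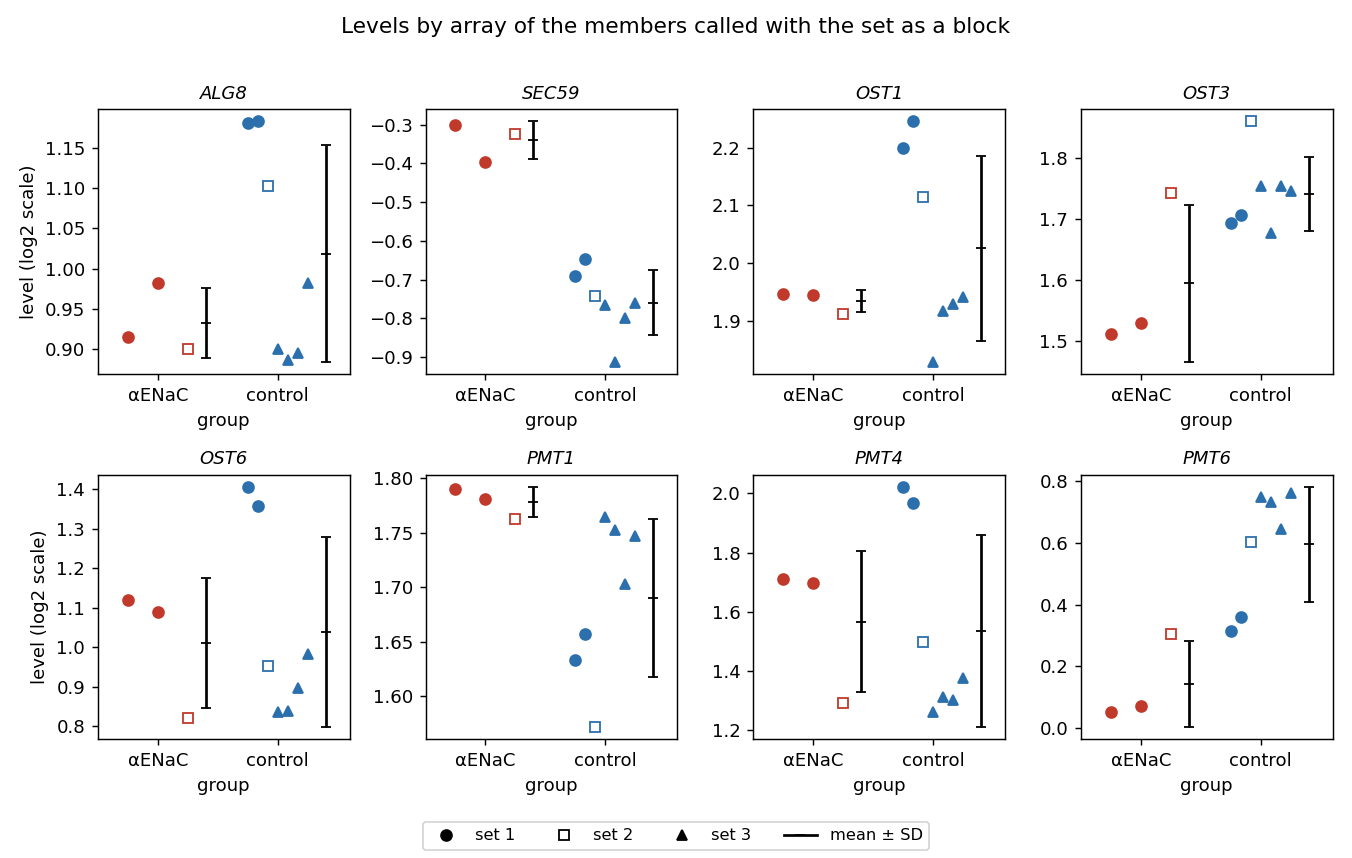
Level (log2 scale, y axis) on each αENaC (left) and control (right) array of the 8 members called with the title number set as a fixed block, with symbols for the set and bars for mean ± SD. In SEC59 and PMT6 all αENaC arrays lie on one side of all controls, whereas in ALG8, OST1 and PMT4 αENaC lies below the controls of its own set but level with or above those of set 3.

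The genes that read the finished glycan did not pass. CWH41 encodes glucosidase I and was at 0.31, 0.21 and 0.24 in αENaC against −0.26 to 0.32 in controls (0.22 ± 0.14, adjusted p = 0.421). Its controls of sets 1 and 2 lay between 0.24 and 0.32, level with αENaC. ROT2, the catalytic subunit of glucosidase II, differed by −0.05 ± 0.08 (adjusted p = 0.776). CNE1, the yeast calnexin, had the smallest p of the role. It was at −0.78, −0.84 and −0.59 in αENaC against a lowest of −1.13, a median of −0.98 and a highest of −0.70 in controls, a difference of 0.20 ± 0.10 (adjusted p = 0.336). Within sets 1 and 2 CNE1 differed by 0.02 and 0.11.

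The largest differences in these genes lay between control arrays of different sets. Between set 3 and set 1, 25 of the 32 members differed (limma in a fit with 1 mean for each set and group, adjusted p under 0.05), where 64.3% of all probe sets did. Of these, 6 were higher in set 3 and 19 lower, against 27.2% and 37.1% of all probe sets. The median size of this shift was 0.21, against 0.08 for the αENaC difference over all arrays. Over all probe sets these medians were larger, at 0.28 and 0.14. In 24 of 32 members (75%) the control shift was larger than the αENaC difference. Over all probe sets that was so for 71.3%. PMT5 showed the largest shift, at −0.82, followed by PMT4 at −0.68 and ALG5 at −0.61. OST4 and PMT6 shifted the other way, by 0.45 and 0.39. With the set as a fixed block 8 of the 32 members were called, where 14.2% of all probe sets were. For these the shift was −0.27 for ALG8, −0.14 for SEC59, −0.32 for OST1 and 0.10 for PMT1. Those of OST3, OST6, PMT4 and PMT6 are given above. No αENaC array belongs to set 3, so in the comparison over all arrays these shifts and the effect of αENaC cannot be fully told apart.

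**Figure D4:**
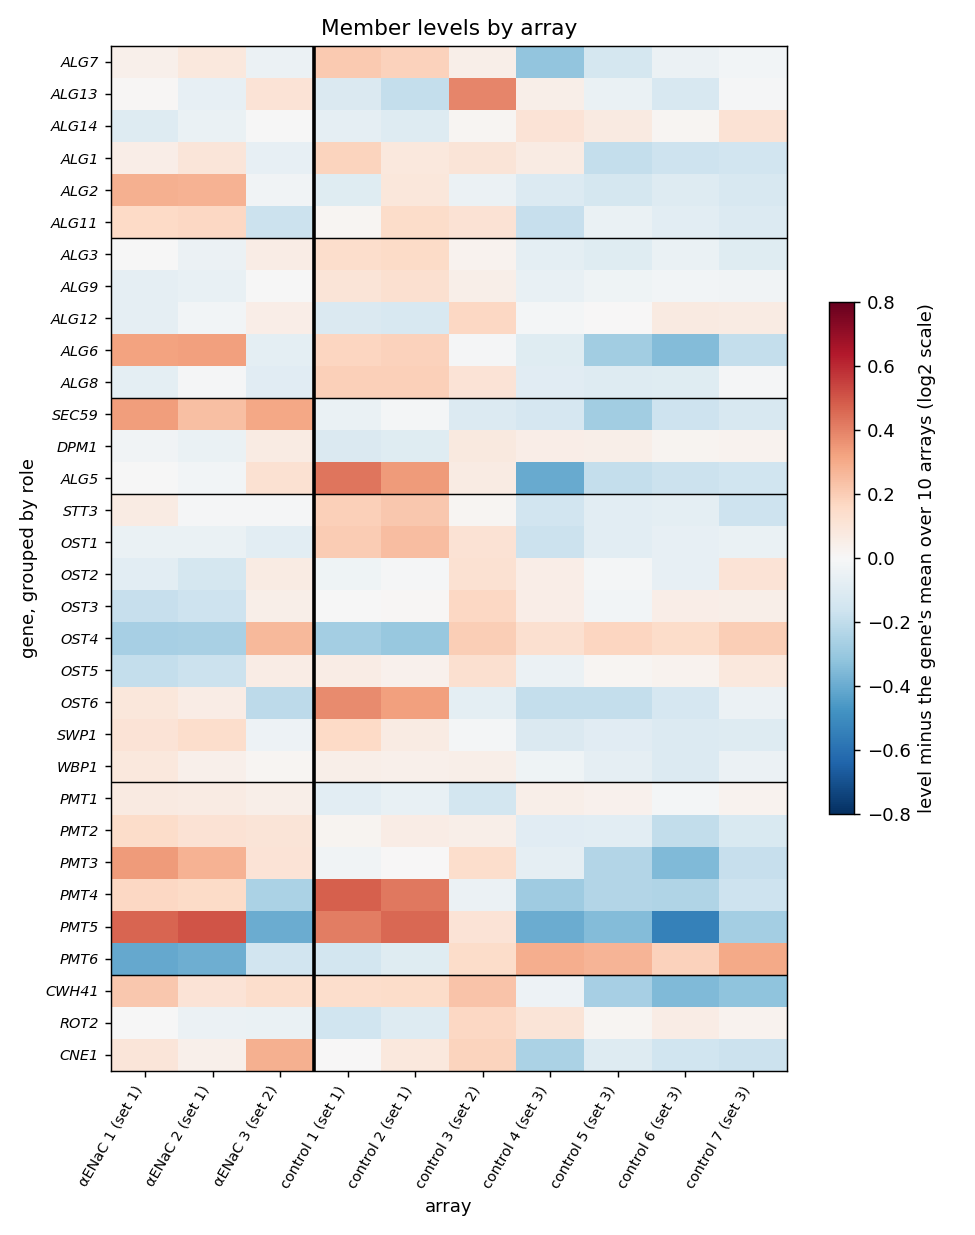
Level of each of the 32 genes (rows, grouped by role) on each array (columns, αENaC left of the line and controls right of it) minus the gene's mean over the 10 arrays, on the log2 scale. PMT4, PMT5 and OST6 are high in the set 1 arrays and low in set 3, OST4 and PMT6 show the opposite, and SEC59 is high in the 3 αENaC columns.

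The αENaC difference itself depended on the set in 2 members. The set 1 difference minus the set 2 difference was 0.56 ± 0.15 for PMT5 (limma adjusted p = 0.0414) and 0.32 ± 0.09 for ROT2 (adjusted p = 0.0456). ROT2 was at 0.47, 0.43 and 0.43 in αENaC and at 0.32, 0.37 and 0.65 in controls 1 to 3, so its controls and not its αENaC arrays differed between the sets. This interaction was called in 17.4% of all probe sets. Set 2 gives it 1 array in each group, and its spread comes from arrays of sets 1 and 3. For SEC59 and PMT6 the interaction was −0.10 (adjusted p = 0.584) and 0.02 (adjusted p = 0.876).

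Genes around this machinery were listed to give the members a setting. The 68 measured genes were those of dolichol synthesis, sugar nucleotide supply, glycan trimming, Golgi mannosylation and GPI anchor assembly. Of them 1 rose (NUS1) and 0 fell, against 1.36% and 0.364% of all probe sets. At an unadjusted p under 0.05 were 12 (17.6%), against 18.2% of all probe sets. The median difference was 0.05, against 0.02 over all probe sets. With the set as a fixed block 7 of the 68 were higher and 7 lower, against 7.38% and 6.86% of all probe sets. Among the 8 sugar nucleotide genes the phosphomannose isomerase gene PMI40 was at 2.86, 2.83 and 2.75 in αENaC against 2.52 to 2.69 in controls, without overlap (0.17 ± 0.06, adjusted p = 0.193). The sign of PMI40 changed under 1 of the 28 alternatives, to −0.12. GFA1, which starts the synthesis of N-acetylglucosamine donors, was at 0.30 ± 0.12 (adjusted p = 0.212). Of 25 Golgi mannosylation genes, KTR2, a mannosyltransferase gene, was at −0.02, −0.09 and −0.25 in αENaC against −1.30 to −0.26 in controls. Its difference was 0.68 ± 0.17 (adjusted p = 0.0790), and 0.85 with the set as a fixed block (adjusted p = 0.0107). MNN11 was at −0.39 ± 0.12 (adjusted p = 0.110).

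Of 22 GPI anchor genes the ethanolamine phosphate transferase gene GPI13 was at 0.82, 0.85 and 0.93 in αENaC against 1.09 to 1.32 in controls, without overlap (−0.29 ± 0.07, adjusted p = 0.0735), and GPI17 was at 0.20 ± 0.08 (adjusted p = 0.227). The 7 genes of trimming and glycan-directed degradation had AMS1 at 0.66 ± 0.31 (adjusted p = 0.296) and MNL2 at 0.17 ± 0.11 (adjusted p = 0.426). On the same arrays 8 of 13 ER folding genes rose and 0 fell, where 1.36% of all probe sets were higher and 0.364% lower. The median of this ER folding list was 0.49, against 0.03 in the glycosylation members, of which 1 of 32 rose. That list was drawn up with results of these data known, so its count is not independent evidence of its direction. Its count was 4 with median centring, 3 without αENaC 1, and 0 with the replicate block or with near-identical arrays averaged. Besides the chaperone genes KAR2, LHS1, SIL1 and JEM1, the oxidase gene ERO1, ULI1 and the degradation gene DER1, the J-domain protein gene SCJ1 rose. It was at 0.33, 0.25 and 0.55 in αENaC against −0.15 to 0.10 in controls (0.40 ± 0.08, adjusted p = 0.0423). The disulfide isomerase genes PDI1, EUG1 and MPD1 were at 0.18, 0.42 and 0.53, HAC1 at 0.16 and HRD1 at 0.20, none past the test. With the set as a fixed block MPD1 alone of these was called, at 0.87 ± 0.10 (limma adjusted p = 0.00268). Its controls of set 3 were 0.75 higher than those of set 1.

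**Figure D5:**
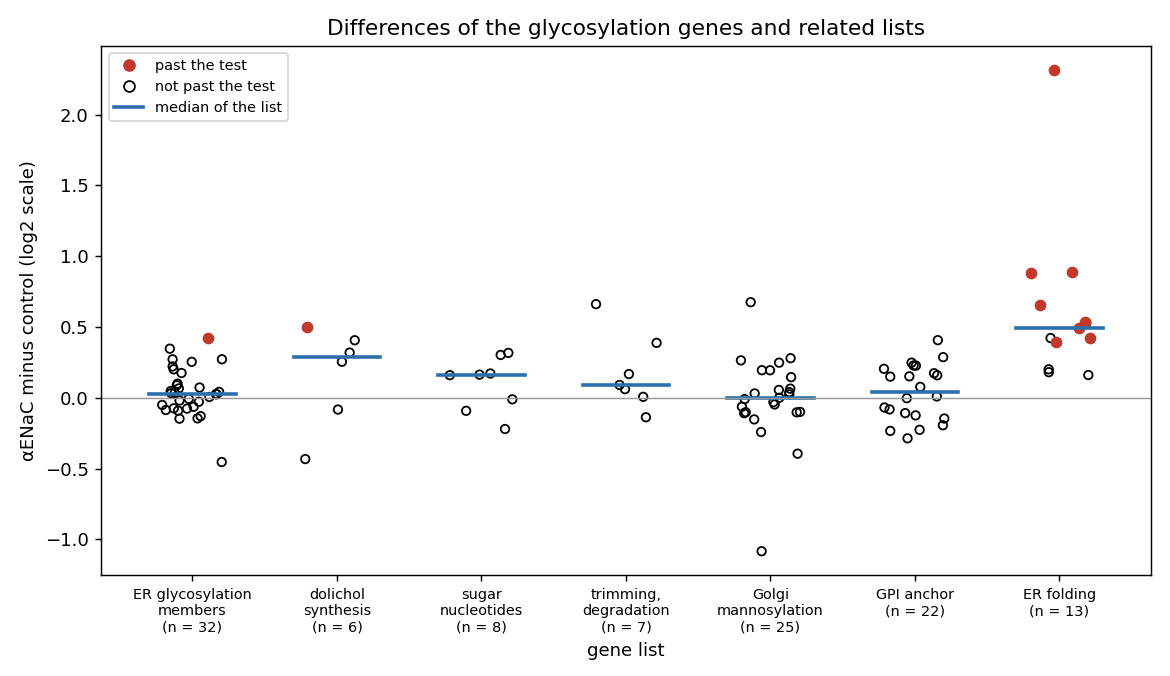
Difference between αENaC and vector control arrays (log2 scale, y axis) for each gene of 7 lists (x axis), red where past the test, with a blue line at each list's median. The 32 glycosylation members centre on 0.03 with 1 red point, the 25 Golgi genes on 0.00, and the 13 ER folding genes on 0.49 with 8.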

How the data were processed

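Total RNA from αENaC and vector control yeast was labelled with the 3' IVT Express kit and hybridised to single-colour arrays (3 and 7), per the labels' protocols. Sample titles number the arrays as replicates, and whether each came from a separate culture is not established here. The deposited value is a score that, judged from the values, has mean 0 and SD 1 within each array (10715 probe sets) and was not logged. The sources used here do not say how the authors got from probes to probe sets.

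Each array's lowest score was subtracted and the result divided by that score's size, which takes the lowest value as 0. Then 0.03 was added, log2 taken and arrays quantile normalized. Log2 differences of low genes come out too small on this scale. Gene symbols are those of the platform annotation, updated by gene identifier with the R64 RefSeq table. The 95th percentile of 1746 probe sets named outside S. cerevisiae gave the background level.

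The test was limma's (version 3.58.1, R 4.3.3, 2-sided) with 1 mean per group and no covariates, which leaves 8 residual degrees of freedom. P-values were adjusted by Benjamini-Hochberg over the 5498 probe sets, with a threshold of 0.05. Errors are SE and n counts arrays, whose number limits the precision. The set block has 6 residual degrees of freedom and the fit of set and group means 5. The replicate block holds αENaC 1 to 3 and controls 1 to 3. It takes same-numbered arrays as pairs, which deviated together from their groups (r = 0.41, 0.22 and 0.17). But αENaC 2 correlated more with control 1 (0.27), and αENaC 3 more with controls 5, 6 and 7 (0.39, 0.40 and 0.31). For αENaC 1 and control 2 the value was 0.38. These values thus do not establish a pairing by number. Other alternatives changed the scaling, pseudocount, filter, variance model, weights and arrays used. Of these, 3 were chosen after seeing the data. The fits were tested on simulated data with planted differences. Noise in those data was independent between arrays, so near-identical arrays and deviations shared within a set were not covered.

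Values in every αENaC array are given for members past the test and for the smallest p of each role. They are also given for members called with the set as a fixed block with the same sign in sets 1 and 2. Control values of these members are given by array or as a range. Of each related list the 2 genes with the smallest p are named. The members and lists were chosen with earlier results of these data known.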

Additional observations from a re-analysis of the deposited data

Results flagged for a closer look

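Among the 7 control arrays 3 genes had 1 array far from the others. ALG13 was highest in control 3, at −0.0018, against −0.34 in the next control. ALG2 was highest in control 2, at 0.28, against 0.15 in the next, and OST3 was highest in control 3, at 1.86, against 1.75. Chance alone sets 1 array apart in about 1 in 20 such groups, and 32 genes were examined. The controls also come from 3 title number sets, and control 3 is the one control of set 2.

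In PMT5 and ROT2 the αENaC difference differed between sets, by 0.56 and 0.32 (set 1 minus set 2). Without control 4 the interaction was called in 7 members, and in 0 without αENaC 1, αENaC 2, control 1, control 2 or control 5.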

How the results depend on the processing

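Over 28 alternatives, 671 of 896 member values kept their sign and their side of the threshold. A further 155 changed sign with no call in either fit, and 10 changed sign with a call and are named below. With the same sign, 52 gained a call and 8, all of SEC59, lost it. Members called higher and lower numbered 1 and 0. With median centring, without quantile normalization, with title numbers 1 to 6 only, with the replicate block and with near-identical arrays averaged, 0 were called in either direction (unadjusted p under 0.05 in 4, 5, 3, 6 and 2 members). Array weights, whose estimate did not converge, called 17 and 8, among 2365 and 1761 of all probe sets. Title numbers 1 to 4 alone, with near-identical pairs, called 5 and 12, among 1530 and 1722. As a fixed block the set called 2 and 6, among 406 and 377 of all probe sets (7.38% and 6.86%). With median centring this block called 1 and 5, among 252 and 294. Without quantile normalization it called 2 and 3, among 573 and 159. As a random block the set called 1 and 3, among 358 and 259. The fixed block over title numbers 1 to 6 called 1 and 2, among 251 and 184. Leaving out 1 array gave 0 to 2 higher and 0 lower.

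The median of 0.03 was 0.13 without quantile normalization, 0.13 on the deposited scores and −0.10 with the set block and median centring, and 0.00 (−0.0033) to 0.07 with 1 array left out. With title numbers 1 to 4 alone ALG7, ALG3, ALG5, STT3 and PMT4 were lower, at −0.13, −0.15, −0.38, −0.14 and −0.26. OST6 was higher with array weights, at 0.17. PMT4 was lower with the set as a fixed block, at −0.26, at −0.25 over title numbers 1 to 6, at −0.31 with median centring and at −0.22 without quantile normalization. The interaction was called in 2 members, in 0 with median centring, in 1 without quantile normalization, in 1 with trend and robust variance, and in 0 to 7 with 1 array left out. It could not be fitted without αENaC 3 or control 3. The 25 members that differed between control sets were 16 to 27 with 1 array left out. Of the related genes 1 was called, but 2 on the deposited scores, 49 with array weights, 14 and 13 with the set as a fixed and a random block, 38 in title numbers 1 to 4, and 0 with median centring, without quantile normalization, in title numbers 1 to 6, with the replicate block and with near-identical arrays averaged. With 1 array left out it was 0 to 3. The cause of these changes was not tested.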

Other observations

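MNN4, a regulator of mannose phosphate addition in the Golgi, was picked out after its values were seen. Its level was −1.47 and −1.46 in αENaC of set 1 against −1.77 and −1.49 in the controls of that set, and 0.41 in αENaC 3 against 0.38 in control 3. In the 4 controls of set 3 it was 1.11 to 1.20. Its difference over all arrays was −1.08 ± 0.76 (limma adjusted p = 0.473), and 0.17 within set 1 and 0.03 within set 2. GTB1, the subunit that pairs with ROT2 in glucosidase II, was picked out in the same way. It was at −0.15, −0.23 and −1.04 in αENaC, against −0.17 and −0.12 in the controls of set 1, −0.88 in control 3 and −1.33 to −1.03 in set 3. Its difference was 0.39 ± 0.31 (limma adjusted p = 0.537) over all arrays, but −0.05 within set 1 and −0.16 within set 2.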
